A study of Homo sapiens with 6 samples.

Results

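Long noncoding RNAs and noncoding host genes of small nucleolar RNAs (snoRNAs) were followed in immunoprecipitates (IPs) of the double-stranded RNA binding protein Stau1. The genes were 7 by name, GAS5, SNHG1, SNHG5, SNHG7, SNHG8, SNHG12 and MALAT1, and a member was any target of the array whose gene symbol equalled one of these names. Of the 37879 targets measured, 4 were members (SNHG5, SNHG8, GAS5 and MALAT1), and SNHG1, SNHG7 and SNHG12 were matched by no target and were not analysed here. All samples came from HEK293T cells, a human embryonic kidney line, held in prometaphase by nocodazole (50 ng/ml; the labels give 15 h and the methods a longer time). In the control IP group the cells carried an empty vector, and in the Stau1 IP group a plasmid for Stau155-FLAG, and both were precipitated with anti-FLAG antibody. Each group had 3 arrays, one RNA sample each, so the p-values measure the spread between these samples, whose separate culture is not stated. The Stau1 was tagged and expressed from a plasmid, so the precipitation was directed at the tagged protein, and what part of the RNA came down through Stau1 made from the cell's own gene was not tested. The signal in an IP depends on both the amount of an RNA in the cell and the share that was precipitated, and these cannot be told apart here.

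SnoRNAs guide the chemical modification of ribosomal RNA, and most are cut from introns of a host transcript whose spliced exons are then left over. In SNHG genes and GAS5 these exons code for no protein of known role, and the spliced RNA of several hosts is degraded by nonsense-mediated decay, a pathway that needs the helicase UPF1. Many host genes start with a run of pyrimidines (C or T), the 5′ terminal oligopyrimidine (TOP) motif shared with ribosomal protein genes. MALAT1 hosts no snoRNA and is a nuclear RNA that gathers at splicing speckles. Stau1 can recruit UPF1 to the mRNAs it binds.

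The first bases of the transcripts were read from RefSeq (GRCh38.p14) to show how the hosts differ at their starts. Each line gives 10 bases before and 20 bases from the annotated start, 5′ to 3′, and capitals mark the unbroken pyrimidine run that begins at the start.
SNHG5: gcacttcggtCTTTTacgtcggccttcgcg
SNHG12: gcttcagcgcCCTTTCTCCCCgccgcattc
SNHG7: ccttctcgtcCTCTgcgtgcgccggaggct
SNHG1: gagattcgttCTCatttttctactgctcgt
SNHG4: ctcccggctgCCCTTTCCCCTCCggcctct
The SNHG5 window lies on the minus strand at chr6:85678714-85678743, that of SNHG12 on the minus strand at chr1:28581854-28581883, that of SNHG7 on the minus strand at chr9:136728165-136728194 and that of SNHG1 on the minus strand at chr11:62855866-62855895. SNHG4, a host outside the 7 genes shown because its signal is described below, lies on the plus strand at chr5:139274091-139274120. A start was counted as TOP when it was a C that opened a run of at least 5 pyrimidines, read on the transcript strand only. By this count SNHG5 (a run of 5) and SNHG12 (a run of 11) were the 2 TOP starts among 8 annotated starts of the 7 genes, or 25%, against 4.07% of all 35116 starts. SNHG7 stopped at 4 pyrimidines and SNHG1 at 3, and no run of that kind opened the annotated starts of GAS5, SNHG8 or MALAT1. These are matches of letters in a window, and the arrays did not measure starts. Only annotated starts were read, so a gene without a match here may still have a TOP start elsewhere.

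Among the members SNHG5, the host of the U50 snoRNAs, was the one bright signal. It was detected on all 6 arrays, as were 9884 of all targets, where detection means that a target ranked above the negative controls of its array with a p under 0.05. GAS5 and MALAT1 were detected on no array, like 22528 targets of the table, and SNHG8 was detected on control IP 2 and control IP 3 alone. The level of 1 target cannot be set against that of another, because probes differ in how well they bind.

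The deposited signal of SNHG5 was 6966 on control IP 1, 4991 on control IP 2 and 4584 on control IP 3. It was 3358 on Stau1 IP 1, 3787 on Stau1 IP 2 and 3727 on Stau1 IP 3. Every control IP lay above every Stau1 IP, and control IP 1 stood above the other 2 controls. The standard error between beads was between 2.14% and 3.32% of the signal, and the highest array was 2.06-fold above the lowest after normalization. On the normalized log2 scale SNHG5 was 12.38 ± 0.33 (SD, n = 3) in the control IPs and 11.78 ± 0.08 (SD, n = 3) in the Stau1 IPs. The difference, Stau1 IP minus control IP, was -0.60 (SE 0.17, 95% interval -1.02 to -0.18), or 1.52-fold lower in the Stau1 IPs. It missed both call rules, with an adjusted p of 0.344 in limma's test over all targets and a fold below the 2.5 that the methods require. The unadjusted p of limma was 0.0129, and 5.16% of all targets also passed at 0.05 with a lower signal in the Stau1 IPs. Among the 9884 targets detected on all 6 arrays, 1193 did so. The exact two-sided permutation test gave p = 0.1, the smallest that 3 arrays against 3 allow. Groups that lay apart in this direction were found for 12.7% of the targets detected on all 6 arrays.

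**Figure D1:**
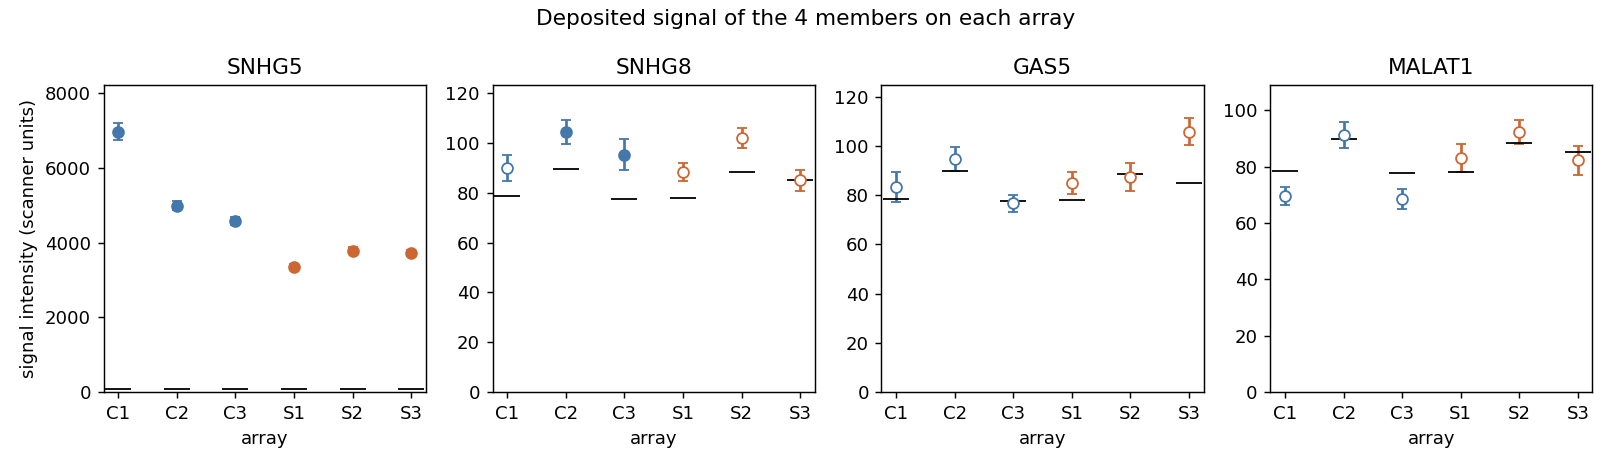
Deposited signal intensity (scanner units, each panel on its own linear axis from 0) of the 4 members on control IP 1 to 3 (C1 to C3, blue) and Stau1 IP 1 to 3 (S1 to S3, orange). Bars are the standard error between beads, filled points were detected, open points were not, and black dashes are the negative-control level of the array. SNHG5 lay far above the dashes with all controls above all Stau1 IPs, and the other 3 members lay close to them.

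The arrays numbered 2 stood apart from their groups. Over the 9884 targets, Stau1 IP 1 and 3 correlated with each other at r = 0.995, whereas Stau1 IP 2 correlated with them at 0.937 and 0.939 and with control IP 3 at 0.971. Control IP 2 correlated with Stau1 IP 1 and 3 at 0.982 and 0.983, and the control IPs correlated among themselves at 0.975 to 0.981. Whether the 2 arrays were exchanged was not tested, and they are shown singly. The members and the lists are therefore given for the groups as labelled and again without both arrays numbered 2, which were left out with their values known. With 2 arrays against 2, the exact test cannot go below 0.3333. Without them 1251 targets were higher (3.30%) and 937 lower (2.47%) in the Stau1 IPs at an adjusted p of 0.05, against 0 and 0 by the labels, where 3638 targets had an unadjusted limma p under 0.05. By the rule of the methods 10 targets were higher (0.0264%) and 12 lower (0.0317%) as labelled, and 459 (1.21%) and 108 (0.285%) without those arrays. No member was called under either rule in either comparison.

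For SNHG5 both arrays numbered 2 lay on the side of their labels, with control IP 2 at 12.17 and Stau1 IP 2 at 11.86 on the log2 scale. Without them the control IPs were at 12.48 ± 0.40 (SD, n = 2) and the Stau1 IPs at 11.73 ± 0.02 (SD, n = 2). The difference was then -0.75 (SE 0.20, 95% interval -1.26 to -0.24), with an adjusted p of 0.116 by limma. The groups lay apart, as they did in this direction for 39.0% of detected targets with 2 arrays a group.

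A further target, C6ORF160, carries an older symbol of SNHG5 according to RefSeq. It was found after the values had been seen and is no member by the rule. Its deposited signal was 4100 on control IP 1, 2584 on control IP 2 and 3401 on control IP 3, and 1756, 2870 and 1819 on Stau1 IP 1, 2 and 3. Here the arrays numbered 2 changed sides, since Stau1 IP 2 lay above control IP 2, and the groups overlapped. As labelled the difference of C6ORF160 was -0.72 (SE 0.32, 95% interval -1.51 to 0.07) on the log2 scale, with an adjusted p of 0.573 by limma. Without the arrays numbered 2 it was -1.26 (SE 0.14, 95% interval -1.61 to -0.90), or 2.39-fold lower in the Stau1 IPs, with an adjusted p of 0.0170. Under the background estimate of limma's neqc, which had been planned, the call by adjusted p was lost (0.0925). The difference was then -1.74 (limma p of 0.00250), which passed the rule of the methods, as 99 of all targets did in this direction. The 2.39-fold of the estimate in use did not pass that rule. The 2 targets of SNHG5 thus had the same sign in both comparisons, and they disagreed on whether control IP 2 or Stau1 IP 2 was higher. Over the 6 arrays their log2 values had a Pearson r of 0.840, given as a description because the points share labelling and scanning.

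**Figure D2:**
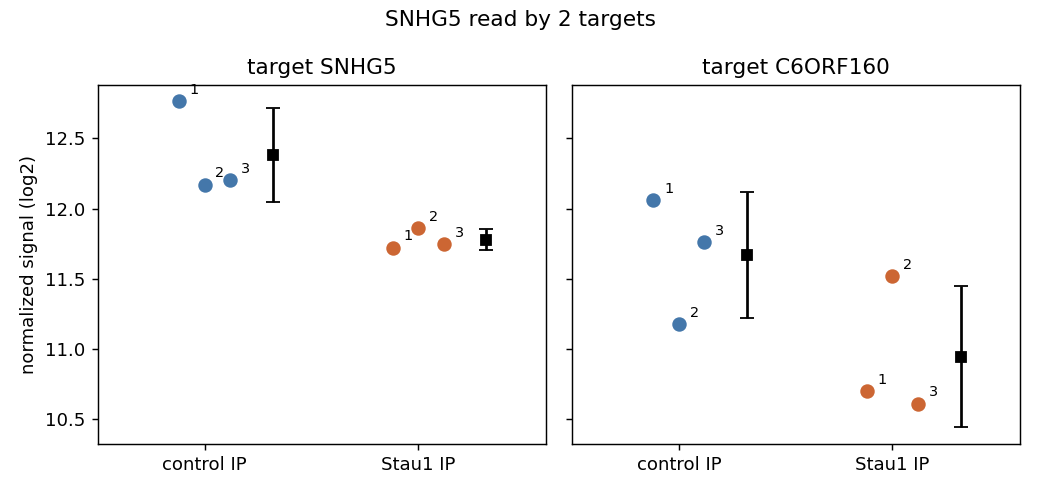
Normalized log2 signal of the target SNHG5 (left) and of C6ORF160, an older symbol of the same gene (right), on each array of the control IP (blue) and Stau1 IP (orange) groups. Numbers name the arrays, and squares with bars are the mean and SD of 3 arrays. SNHG5 separated the groups, while array 2 of C6ORF160 was higher in the Stau1 IP than in the control IP.

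Of 9443 other targets with a symbol that were detected on all 6 arrays, those with the pattern most like SNHG5 over the 6 arrays were PDE1A (r = 0.997), TATDN1 (r = 0.997) and ZCCHC8 (r = 0.996). In all 16 targets exceeded an r of 0.99 with SNHG5.

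SNHG8, a host of an H/ACA snoRNA, lay just above background. Its signal was 89.9, 104 and 95.2 on control IP 1, 2 and 3, and 88.2, 102 and 84.9 on Stau1 IP 1, 2 and 3. The negative-control level of the arrays lay between 77.6 and 89.6, and the arrays of the groups overlapped. On the log2 scale SNHG8 was 5.03 ± 0.11 (SD, n = 3) in the control IPs and 4.83 ± 0.21 (SD, n = 3) in the Stau1 IPs, where it was not well above background on any array. The difference was -0.19 (95% interval -0.51 to 0.12), with an adjusted p of 0.762 by limma, and -0.31 without the arrays numbered 2, with an adjusted p of 0.346. The interval included no difference, and no fold is given. The array's annotation places this target on chromosome 3 and RefSeq places SNHG8 on chromosome 4, so which transcript it measured is uncertain.

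GAS5, which accumulates in growth-arrested cells, had a signal of 83.1, 94.7 and 76.6 on the control IPs and 84.9, 87.4 and 105.7 on the Stau1 IPs. Its lowest detection p was 0.0922, on Stau1 IP 3, and the target is annotated as a predicted RNA. MALAT1 had a signal of 69.6, 91.3 and 68.4 on the control IPs and 82.9, 92.3 and 82.2 on the Stau1 IPs, with detection p-values from 0.314 to 0.845. Neither was well above background in either group, so no fold is given. A difference in these 2 RNAs was not detectable at this signal, which does not say that the RNAs were absent.

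Other noncoding RNAs and hosts were read from a list of 38 symbols, of which 18 had a target and 6 were detected on all 6 arrays. By the labels 0 of the 18 were called by either rule, while 3 were higher, against 4.45% of all targets, and 1 was lower, against 5.16%, at an unadjusted p of 0.05. Without the arrays numbered 2, SNHG4 and SNHG10 were called at an adjusted p of 0.05 and both were higher in the Stau1 IPs, which is 2 of 18 against 3.30% of all targets. The median difference of the 6 detected targets was 0.21 as labelled, against -0.0005 over all detected targets, and 0.45 against -0.08 without the arrays numbered 2.

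SNHG11 had the largest difference of the 6. Its signal was 364, 614 and 589 on the control IPs and 1109, 652 and 1226 on the Stau1 IPs, so the groups did not overlap, and Stau1 IP 2 lay nearest to the controls. As labelled its log2 difference was 1.00 (SE 0.22, 95% interval 0.46 to 1.55), or 2.00-fold higher, with an adjusted p of 0.249 by limma. Groups apart in this direction were found for 10.2% of detected targets. The difference of SNHG11 was 1.20 without the arrays numbered 2, with an adjusted p of 0.0570 by limma, and groups of 2 arrays lay apart in this direction for 29.5% of detected targets. With the planned estimate the differences of SNHG11 were smaller, at 0.55 as labelled and 0.69 without those arrays, and neither was called.

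SNHG4, the TOP host whose start is printed above, had a signal of 108.0, 182 and 90.9 on the control IPs and 261, 102 and 255 on the Stau1 IPs. Control IP 2 was the highest control, and Stau1 IP 2 lay below it. The labelled difference was 0.88 (SE 0.74, adjusted p of 0.838 by limma), and without the arrays numbered 2 it was 2.07 (SE 0.22), or 4.19-fold higher, with an adjusted p of 0.0155. SNHG10 was arranged alike, with 100.8, 139.5 and 100.3 on the control IPs and 169, 101.2 and 191 on the Stau1 IPs. Its labelled difference was 0.57 (adjusted p of 0.833 by limma). Without the arrays numbered 2 it was not well above background on either control IP. The difference of SNHG10 was then estimated at 1.30, or 2.46-fold higher in the Stau1 IPs, with an adjusted p of 0.0105 by limma. With the planned neqc estimate both calls were lost and the differences shrank to 0.12 for SNHG4 and 0.06 for SNHG10 on the log2 scale, with adjusted p-values by limma of 0.0925 and 0.0648, so the size of both rests on the background estimate.

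SNHG3 was detected on no array as a target of its own. SNHG3-RCC1, a readthrough target joining the host to the chromosome regulator RCC1, was looked up after values had been seen. Its signal was 752, 1054 and 943 on the control IPs and 1519, 947 and 1779 on the Stau1 IPs. The difference was 0.61 as labelled (adjusted p of 0.324 by limma) and 0.79 without the arrays numbered 2 (adjusted p of 0.0347), and the latter call was lost with the planned estimate (adjusted p of 0.110). This target may share RNA with RCC1 itself, so it does not read the host alone. The RCC1 target, looked up with it and detected on 4 arrays at a low signal, differed by 0.56 as labelled (adjusted p of 0.710 by limma). Without the arrays numbered 2 the RCC1 target was at 1.07 (adjusted p of 0.0145), and that call was lost with the planned estimate (0.05, adjusted p of 0.0751). DLEU1, RN7SL1, RPPH1, TIGA1 and TUG1 were detected on all arrays and none was called. TUG1 changed sign, from -0.03 as labelled to 0.46 without the arrays numbered 2 (adjusted p of 0.367 by limma).

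**Figure D3:**
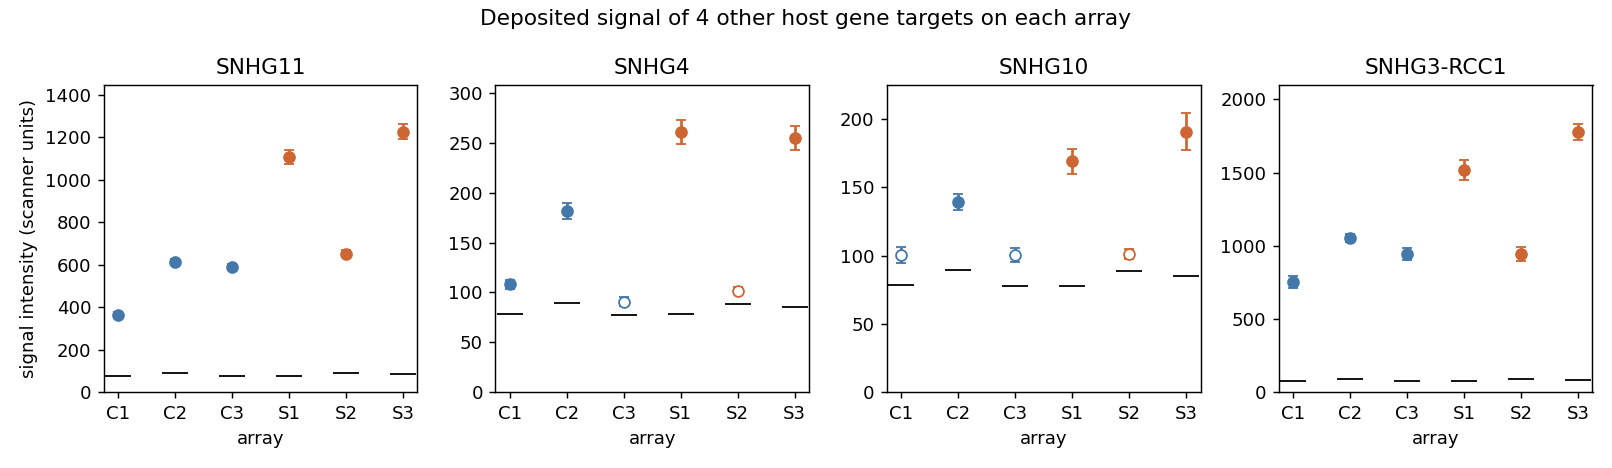
Deposited signal intensity (scanner units, linear axes from 0) of 4 other host gene targets on control IP 1 to 3 (C1 to C3, blue) and Stau1 IP 1 to 3 (S1 to S3, orange). Bars are the standard error between beads, open points were not detected, and black dashes are the negative-control level. Stau1 IP 1 and 3 lay highest in each panel, and for SNHG4, SNHG10 and SNHG3-RCC1 Stau1 IP 2 lay below control IP 2.

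Protein-coding snoRNA hosts, mainly ribosomal protein and translation factor genes, gave 33 targets from 36 symbols, of which 32 were detected on all 6 arrays. By the labels 0 were called by either rule, and 9 were lower, against 5.16% of all targets, and 0 higher, against 4.45%, at an unadjusted p of 0.05. Among the 9884 targets detected on all 6 arrays, 1193 were lower and 1031 higher at that p. Of the 32 detected, 28 (87.5%) lay below 0, against 50.0% of all detected targets, with a median difference of -0.19 as labelled and of -0.26 without the arrays numbered 2. The lowest were EIF4A2, a translation initiation helicase, at -0.66 (adjusted p of 0.209 by limma) and NOP56, a core protein of C/D snoRNPs, at -0.57 (adjusted p of 0.682). The highest were RPS2 at 0.34 and RPSA at 0.14, the latter at 0.18 without the arrays numbered 2. Without the arrays numbered 2, RPS2 was higher and DKC1, EIF4A2, NOP56, RPL23, RPL23A and RPL4 were lower at an adjusted p of 0.05. The lower calls were 6 of 33, against 2.47% of all targets and 785 of the 9884 targets detected on all 6 arrays. The higher call was 1 of 33, against 3.30% of all targets and 866 of those 9884. With the planned estimate none of these named calls passed in that comparison. There 1 other target of the 33, HSPA8, was lower (-0.28, adjusted p of 0.0493 by limma) and 0 were higher. In the estimate in use HSPA8 was not called (-0.27, adjusted p of 0.240). SNHG5, the detected noncoding host among the members, lay between EIF4A2 and NOP56 in the labelled comparison.

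The proteins that bind snoRNAs (fibrillarin, dyskerin and their partners) gave 9 targets, all detected and all below 0 as labelled, with a median of -0.22 and 0 called. After NOP56 the lowest was NOP58 at -0.55, and the highest were NOLA1 at -0.05 and FBL (fibrillarin) at -0.08. In the comparison without the arrays numbered 2, DKC1 (dyskerin) and NOP56 fell by 0.71 and 1.07 on the log2 scale, with adjusted p-values by limma of 0.0278 and 0.0215. The median of the 9 was -0.48. DKC1 and NOP56 were 2 of 9 targets called lower, against 2.47% of all targets and 785 of the 9884 detected on all 6 arrays. Neither passed with the planned estimate, where the differences were -0.77 and -1.19. Both also belong to the coding host list.

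Of 10 factors of nonsense-mediated decay and RNA turnover, none was called as labelled. UPF2 had the largest difference at -1.22 (adjusted p of 0.186 by limma). UPF1 was at 0.56 (adjusted p of 0.421), SMG5 at 0.69 (adjusted p of 0.585), UPF3B at -0.996 (adjusted p of 0.236) and UPF3A at -0.54 (adjusted p of 0.513). With 2 arrays a group UPF1, SMG5 and UPF3A were at 0.70, 1.09 and -0.42, and none was called. In that comparison UPF2 and UPF3B fell by 1.41 and 1.12 on the log2 scale (adjusted p of 0.0128 and 0.0145 by limma), 2 of 10 against 2.47% of all targets. Among the 9884 targets detected on all 6 arrays, 785 were called lower and 866 higher. DCP2, a decapping enzyme, turned from -0.12 as labelled to 0.79 (adjusted p of 0.0281), 1 of 10 against 3.30%. With the planned estimate none of the 3 passed, and the differences were smaller, at -0.17 for UPF2, -0.23 for UPF3B and 0.42 for DCP2. These values are levels of the factors' own mRNAs in the IPs.

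**Figure D4:**
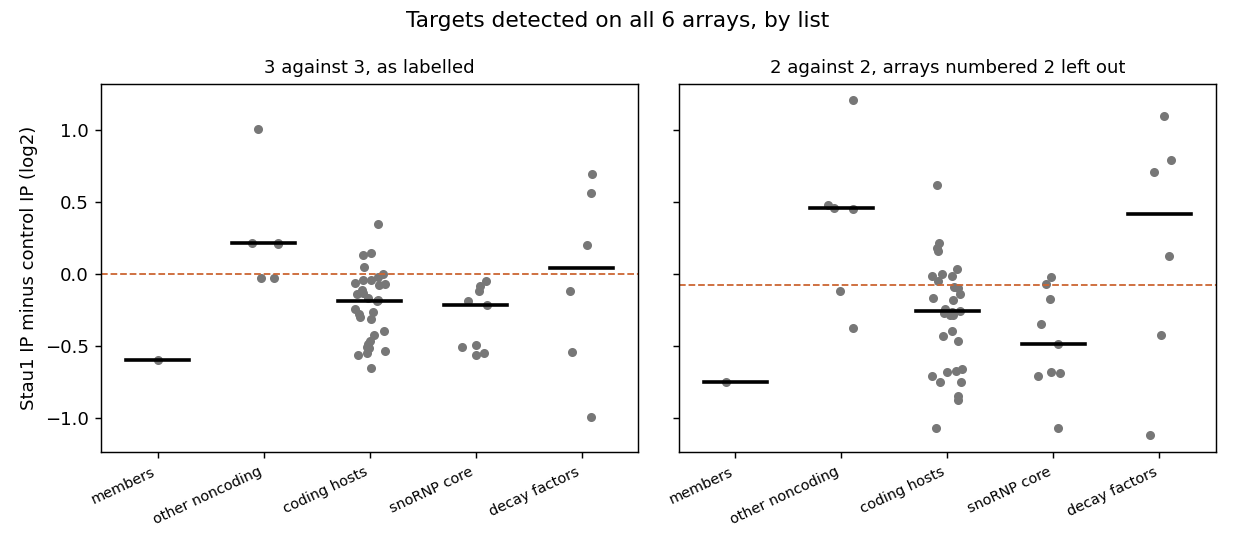
Difference on the log2 scale, Stau1 IP minus control IP, of every listed target detected on all 6 arrays, with 3 arrays a group as labelled (left) and 2 a group without the arrays numbered 2 (right). Points are targets, black lines are medians of a list, and the orange dashed line is the median of all 9884 detected targets. SNHG5, the single member, lay at -0.60 and -0.75, and most coding hosts lay below 0 in both panels.

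The samples were checked against marker genes. All 5 HEK293T marker targets (VIM, KRT8, KRT18, NEFM and NEFL) were detected on all 6 arrays, as were CCNB1, CDC20, PLK1, AURKA and BUB1, which mark mitotic cells, and PTPRC, CD3E, ALB and HBB on none. COL1A1 and INS were detected on 5 and 4 arrays at signals of at most 152. STAU1, whose own mRNA is no measure of the precipitated protein, differed by -0.17 (SE 0.16), with an adjusted p of 0.867 by limma, and by 0.04 without the arrays numbered 2.

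Some of these markers also differed between the groups, and their part in the results was not tested. As labelled all 5 HEK293T markers lay below 0, from -0.78 for NEFM to -0.14 for KRT18, with a median of -0.25 and 0 called. Without the arrays numbered 2 their median was -0.62, with KRT8 at -1.01 and NEFL at -1.11, and again 0 were called. The mitotic kinase BUB1 was at -0.90 as labelled (limma p of 0.00113, adjusted p of 0.209), a larger difference than that of SNHG5. In the comparison of 2 arrays a group BUB1 and the cyclin CCNB1 were called lower, at -0.93 and -1.02 (adjusted p of 0.0199 and 0.0211 by limma). With the planned estimate neither passed by adjusted p (0.0652 and 0.103). CCNB1 was then at -1.41 (limma p of 0.00324) and passed the rule of the methods, as 99 of all targets did in this direction. AURKA, PLK1 and CDC20 were called in neither comparison.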

How the data were processed

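RNA of 6 IPs was measured on Illumina HumanWG-6 BeadChips. The authors deposited, as BeadStudio wrote them and with no normalization, a signal intensity, its standard error between beads (intensity), a detection p-value and the number of beads for each target. From these, in R 4.3.3 with limma 3.58.1, background was corrected by normexp with an offset of 16, arrays were quantile normalized, and groups were compared with lmFit and eBayes. A target was called when its fold exceeded 2.5 at an unadjusted p below 0.05, the rule of the methods, or at a Benjamini-Hochberg adjusted p under 0.05.

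One step departed from the plan. The plan was limma's neqc, which infers the negative controls from the detection p-values. On these arrays it put their SD at 460 to 608, because between 231 and 295 targets per array with a signal over 300 had a detection p of at least 0.05. After its counts and values had been seen, it was replaced by a mean and SD (10.4 to 11.5) read from the 200 targets nearest a detection p of 0.5 and those 1 SD to either side. Both were run on simulated data afterwards, where the planned estimate returned the known differences too small in the median and the replacement returned them close to their size. The simulated background was drawn with the mean and SD that the replacement uses, so the simulation cannot decide between the estimates. In part of it neqc was given the deposited detection p-values, which do not belong to the simulated signals. The replacement also raised the number of calls, so the planned results stand beside each call that differs. The variance stabilization of the methods was rebuilt with mgcv 1.9.3 after a first form gave no finite values.

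The members and lists were chosen with earlier results of these data known. Named genes were every member target, STAU1, targets called in a list, the 2 highest and 2 lowest detected targets of each RNA list and the 3 nearest patterns to SNHG5. Figures were drawn with matplotlib 3.10.9. Precision is limited by the number of arrays.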

Additional observations from a re-analysis of the deposited data

How the results depend on the processing

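SNHG5 was lower in the Stau1 IPs under all 20 alternatives, between -0.91 and -0.59 in 14 of them and between -0.71 and -0.41 when 1 array was left out, with limma's adjusted p from 0.108 to 0.677, so it was called in none. TUG1 turned positive without both arrays numbered 2 (0.46), also with neqc's own background estimate (0.61), variance stabilization (0.43) or median centring (0.51), and ranged from -0.25 to 0.37 with 1 array left out.

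DCP2 and STAU1 also changed sign without both arrays numbered 2 (0.79 and 0.04, against -0.12 and -0.17 as labelled). SNHG11 was called in 1 of its 20 alternatives, variance stabilization without both arrays numbered 2 (1.25, adjusted p of 0.0280 by limma).

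Counts of all targets moved more. By the rule of the methods, the 10 higher and 12 lower targets became 1 and 0 with no background correction, 2 and 2 with an offset of 50, and 3 and 6 with neqc's own estimate. The higher count was 4 with median centring or no between-array normalization, 6 with the replicate block or the methods' t-test, and 28 with eBayes trend, and the lower count was 26 with variance stabilization. Leaving out 1 array gave 2 to 269 higher and 9 to 38 lower, the 269 without Stau1 IP 2 and 72 without control IP 2, and 0 to 0 at an adjusted p of 0.05. Adjusted calls were 1 lower with an offset of 50, and 1 higher and 1 lower with neqc's own estimate. Without both arrays numbered 2 the counts by the methods' rule were 459 and 108, with neqc's own estimate 230 and 99, with variance stabilization 515 and 108 and with median centring 649 and 33. The adjusted counts in the same order were 1251 and 937, 160 and 89, 1505 and 1010, and 1496 and 464. The background estimate in use, which replaced the planned one of neqc, and the combinations with the left-out arrays were chosen after seeing the data, and the causes were not tested.

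Arrays with the same number deviated in opposite ways (r of -0.41, -0.74 and -0.39). These deviations were taken from the means of the labelled groups, and whether arrays were exchanged between the groups was not tested. The correlations therefore cannot decide whether the numbers paired the samples. Signal over background limits GAS5, MALAT1 and SNHG8.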
